A study of Mus musculus with 29 samples.

Results

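The mammalian circadian clock genes Per1, Per2, Per3, Cry1, Cry2, Nr1d1, Nr1d2, Bhlhe40, Dbp and Arntl were followed in the prefrontal cortex of mice that carry a mutant Tbr1 allele. These 10 genes were taken by name as the core repressors, an output gene and an activator of the clock, and all 10 were among the 18240 genes of the deposited table and among the 17881 genes that passed the filter on low values. They were chosen by their measured log2 differences between vehicle-treated carriers and wild-type mice, so that difference is a description and no count of calls from it is read as a result.

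Bulk RNA was sequenced from C57BL/6J mice of both sexes at postnatal day 40. Carriers (HT) had 1 wild-type and 1 K228E copy of Tbr1, which encodes a T-box transcription factor of cortical projection neurons. There were 3 female and 3 male libraries of carriers given vehicle. Another 4 of each sex came from fluoxetine, which blocks serotonin reuptake, and 3 female and 4 male libraries from lithium, which is used to stabilise mood. The 4 female and 4 male libraries of wild-type mice (WT) came from vehicle only, so each drug was measured in carriers alone. The labels name no Cre line or tissue-specific promoter, and they give no dose, route, duration of treatment or time of day of collection. An effect of collection time therefore cannot be told apart from any difference between groups, sexes or libraries below.

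The clock is a feedback loop of transcription. ARNTL (BMAL1) pairs with CLOCK or NPAS2, binds E-boxes and activates Per, Cry, Nr1d, Bhlhe40 and Dbp, which makes up the positive arm. PER and CRY proteins together block the activator, BHLHE40 competes with it at E-boxes, and NR1D1 and NR1D2 (REV-ERB alpha and beta) repress Arntl through ROR elements, which makes up the negative arm. DBP carries the rhythm outward by activating genes with a D-box. Per1, Per2 and Bhlhe40 are also induced directly by neuronal activity and, for the Per genes, by glucocorticoids.

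Promoter windows from RefSeq, from 250 bases before to 50 bases after an annotated start on GRCm38.p6, were matched for 8 of the 10 genes in 10 windows. Both strands were searched for the E-box CACGTG, the D-box TTATGTAA and the ROR element TAGGTCA, the sites through which these arms act on each other. An E-box was found in Cry1 and in 1 window of Per1, a pair of D-boxes in Per3 and a ROR element in 1 window of Arntl. The windows of Cry2, Nr1d1, Nr1d2 and Dbp, and the other windows of Per1 and Arntl, held none of these letters. Over all 32851 promoter windows of the same length, 7.15% held the E-box, 0.938% the D-box and 2.61% the ROR element. The windows with a match follow, 5′ to 3′ on the strand of the gene, with the matched letters in capitals.
Per1, plus strand, chr11:69098699-69098998, E-box from base -166: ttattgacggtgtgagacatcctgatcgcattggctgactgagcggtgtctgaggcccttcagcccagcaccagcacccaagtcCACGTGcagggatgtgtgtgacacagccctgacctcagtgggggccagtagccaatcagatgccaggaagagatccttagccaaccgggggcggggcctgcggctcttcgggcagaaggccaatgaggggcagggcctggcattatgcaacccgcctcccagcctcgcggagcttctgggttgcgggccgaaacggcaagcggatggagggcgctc
Cry1, minus strand, chr10:85185005-85185304, E-box from base -60: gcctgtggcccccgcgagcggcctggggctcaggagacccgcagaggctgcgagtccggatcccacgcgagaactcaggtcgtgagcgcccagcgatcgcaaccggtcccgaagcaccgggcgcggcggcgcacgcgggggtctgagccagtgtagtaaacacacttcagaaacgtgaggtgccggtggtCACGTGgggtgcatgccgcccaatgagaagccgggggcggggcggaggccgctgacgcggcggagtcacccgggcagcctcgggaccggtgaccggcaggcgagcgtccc
Per3, minus strand, chr4:151044616-151044915, D-boxes from bases -205 and -158: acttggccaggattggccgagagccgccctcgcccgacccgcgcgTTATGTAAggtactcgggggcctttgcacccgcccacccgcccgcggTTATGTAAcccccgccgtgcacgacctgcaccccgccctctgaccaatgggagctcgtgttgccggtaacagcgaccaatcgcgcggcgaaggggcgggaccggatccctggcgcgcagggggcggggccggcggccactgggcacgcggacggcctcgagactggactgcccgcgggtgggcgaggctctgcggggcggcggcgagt
Arntl, plus strand, chr7:113207261-113207560, ROR element from base 31 after the start: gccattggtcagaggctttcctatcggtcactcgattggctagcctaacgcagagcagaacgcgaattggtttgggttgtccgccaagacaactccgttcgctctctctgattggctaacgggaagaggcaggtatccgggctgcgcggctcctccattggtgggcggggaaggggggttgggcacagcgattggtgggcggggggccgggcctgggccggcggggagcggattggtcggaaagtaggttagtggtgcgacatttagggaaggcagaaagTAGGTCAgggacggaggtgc

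Over the 18240 genes of the deposited table, libraries summed to between 22.8 M and 31.7 M reads, recovered from the values. Values are reads divided by 1 size factor per library, called normalised reads below. Among the 10 genes the fewest reads in any library were 298, for Cry1. The 8 cortical neuron markers, Slc17a7, Neurod6, Tbr1 and Fezf2 among them, were all present and summed to between 46273 and 67576 normalised reads. Markers of neighbouring tissue varied between dissections: those of the olfactory bulb summed to between 767 and 17218, and in 10 libraries the olfactory or striatal marker mean exceeded the overall median by more than 1 (log2). Tbr1 itself was 2866 ± 445 in WT (SD, n = 8), 4067 ± 392 in HT vehicle (n = 6), 4159 ± 590 in HT fluoxetine (n = 8) and 4425 ± 321 in HT lithium (n = 7). The labels do not state that each library came from its own animal, so p-values measure the spread between these libraries.

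On GRCm38 the annotation places Per2 (ENSMUSG00000055866) at chr1:91415982-91459324 on the minus strand, Bhlhe40 (ENSMUSG00000030103) at chr6:108660629-108666925 on the plus strand and Cry2 (ENSMUSG00000068742) at chr2:92403646-92434043 on the minus strand. It places Nr1d1 (ENSMUSG00000020889) at chr11:98767932-98775333 on the minus strand, Dbp (ENSMUSG00000059824) at chr7:45705088-45710203 on the plus strand and Arntl (ENSMUSG00000055116) at chr7:113207465-113314126 on the plus strand. Per kilobase of exon, Nr1d1 was the most abundant of the 10, at 1220 ± 130.0 normalised reads (SD over 29 libraries). Bhlhe40 followed at 851 ± 116 per kilobase, Per1 at 822 ± 67.7, Dbp at 661 ± 60.9, Cry2 at 617 ± 32.6 and Nr1d2 at 533 ± 30.8. Per2 stood at 266 ± 51.0 per kilobase, Per3 at 157 ± 8.52, Arntl at 126 ± 8.43 and Cry1 at 116 ± 9.97. Neighbours in this order overlapped in their ranges over libraries, except Nr1d2 and Per2, whose ranges per kilobase were 487 to 612 and 167 to 363. Within groups, Per2 varied most between libraries. Its residual SD was 0.14 (log2, 21 residual degrees of freedom), larger than in 89.8% of the 1000 genes nearest to it in level. That of Cry2 was 0.05, larger than in 10.8% of its 1000 nearest genes.

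Among vehicle-treated mice, Dbp and the repressors other than Nr1d2 stood higher in carriers than in wild type, while Nr1d2 and Arntl differed little. The rule for choosing the genes used this contrast, so the values are a description. Per2, a core repressor that is also induced by activity, was at 1524, 1391, 1303 and 1748 normalised reads in WT females and at 1104, 977, 1051 and 1093 in WT males. In HT vehicle it was at 1557, 1723 and 2128 in females and at 1315, 1270 and 1497 in males. Both sexes were shifted, and within males the groups did not overlap. The share of all genes with such a separation of groups within 1 sex was not computed, here or below. The log2 difference of Per2 over both sexes was 0.32 ± 0.07 (SE), a 1.25-fold difference on the log2(value + 1) scale, which is used for every fold change here.

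Nr1d1, the REV-ERB alpha repressor of Arntl, was at 2976, 3395 and 3612 (lowest, median, highest) in WT and at 3250, 4191 and 4682 in HT vehicle, a difference of 0.29 ± 0.06. Bhlhe40, the E-box repressor also called DEC1, was at 3182, 3267 and 3947 in WT and at 3282, 4153 and 5272 in HT vehicle, a difference of 0.27 ± 0.06. For Nr1d1 1 male HT vehicle library lay among the WT values, and for Bhlhe40 2 male libraries did. Dbp was at 1683, 1792 and 2038 in WT and at 1930, 2011 and 2382 in HT vehicle, and Per1 at 3796, 4471 and 4895 in WT and at 4623, 4883 and 5509 in HT vehicle. Both overlapped between the groups and differed by 0.19 ± 0.05. The others differed less, Cry1 by 0.11 ± 0.06, Cry2 and Per3 by 0.09, with SE of 0.03 and 0.04, and Nr1d2 by 0.04 ± 0.04. Arntl was at 851, 945 and 1071 in WT and at 886, 948 and 1034 in HT vehicle, and its difference was -0.01 ± 0.05. At an adjusted p under 0.05 in limma, 2 of the 10 were called higher, beside 0.162% of all genes tested, and nothing is read from this count. The plot of levels in each library shows these values.

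Markers of cell types moved in the same comparison. All 8 cortical neuron markers were higher in HT vehicle than in WT, with a median of 0.19 and 1 called, Tbr1, and their sum ranged from 55665 to 65095 against 46279 to 63694. All 6 endothelial, 5 microglial and 5 meningeal markers were lower, with medians of -0.13, -0.12 and -0.20 and 0 called by limma (4, 3 and 3 at an unadjusted p under 0.05). Their sums in HT vehicle and WT were 5477 to 6102 and 5609 to 7035, 6884 to 7725 and 7174 to 8666, and 3573 to 4482 and 3871 to 6426, and none of these markers was at 0 throughout. With the cortical mean as a covariate the difference was 0.27 for Per2, 0.23 for Nr1d1, 0.21 for Bhlhe40, 0.16 for Dbp and 0.24 for Per1. The part of the other cell types was not tested.

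**Figure D1:**
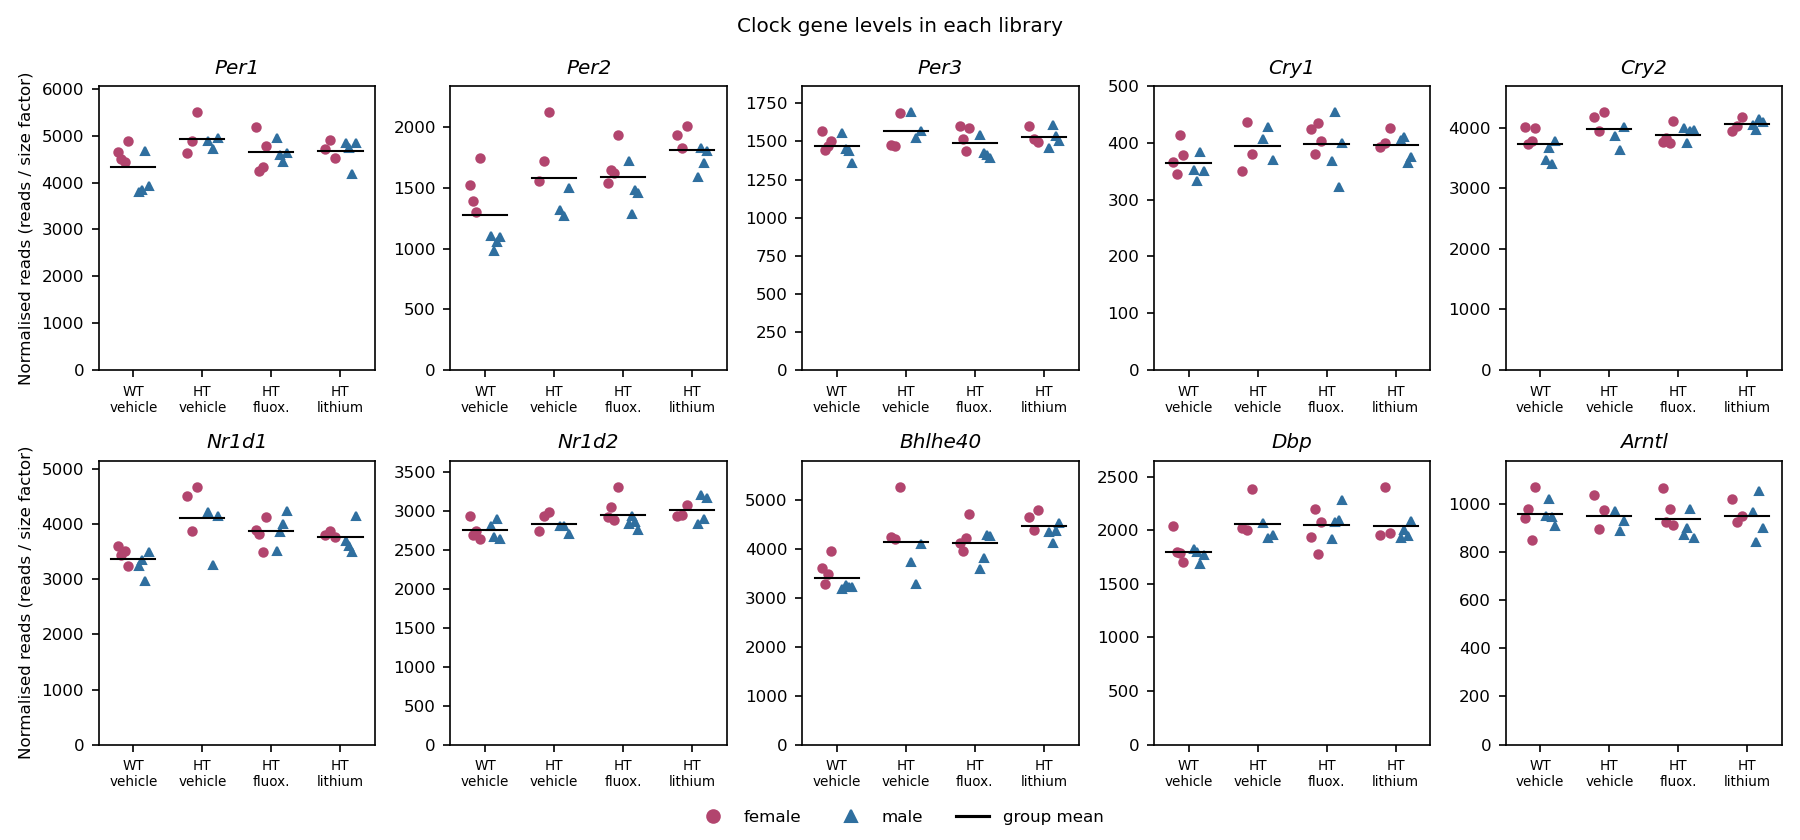
Normalised reads (y axis, from 0) of the 10 genes in the 29 libraries, by genotype and treatment group, with females as circles, males as triangles and group means as lines. Per2 and Bhlhe40 have their lowest means in WT and their highest in HT lithium, where all 7 Bhlhe40 values lie above the 8 WT values, and Arntl differs from WT by at most 0.03 (log2).

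Against wild type, carriers on lithium had more of the repressor transcripts Per2, Bhlhe40 and Cry2. These were 3 of the 10 genes beside 1.33% of all genes called higher, and none was lower. This comparison shares the WT libraries with the one that chose the genes. The direction, the calls and the p-values are therefore not independent of that choice. Per2 was at 1940, 1828 and 2013 in females and at 1593, 1832, 1706 and 1803 in males on lithium. All 7 lithium libraries lay above the WT median of 1204, and in each sex the lithium values lay above every WT value of that sex. How many of all genes separate in this way was not computed. The log2 difference of Per2 was 0.55 ± 0.07, or 1.46-fold (limma adjusted p = 0.000326).

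Bhlhe40 was at 4659, 4378 and 4787 in females and at 4353, 4127, 4370 and 4528 in males on lithium. Every lithium library lay above every WT library, whose highest value was 3947. This held for 1 of the 10 genes and for 0.28% of all genes. The difference was 0.40 ± 0.05, or 1.32-fold (limma adjusted p = 0.000326). Cry2, the partner of PER in the repressor complex, was at 3945, 4048 and 4169 (lowest, median, highest) on lithium and at 3407, 3757 and 4005 in WT, with overlapping ranges and a difference of 0.12 ± 0.03 (limma adjusted p = 0.0372).

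The other repressors and Dbp were not called. Nr1d2 differed by 0.13 ± 0.04 (limma adjusted p = 0.0551), Dbp by 0.19 ± 0.05 (limma adjusted p = 0.0682) and Nr1d1 by 0.17 ± 0.06 (limma adjusted p = 0.117). Cry1, Per1 and Per3 differed by 0.12, 0.11 and 0.06. Arntl was at 842, 948 and 1054 on lithium and differed from WT by -0.01 ± 0.05. The median over the 8 repressors was 0.13 log2, beside -0.0046 over all genes tested.

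Markers of cortical neurons and of other tissue moved with this comparison. All 8 cortical neuron markers were higher on lithium than in WT and 3 were called (Fezf2, Neurod6 and Tbr1 itself, the mutated gene). Their sum ranged from 53976 to 67576 on lithium and from 46279 to 63694 in WT. All 8 olfactory markers were lower, 0 of them called by limma and 6 at an unadjusted p under 0.05, with sums of 767 to 8493 on lithium and 1504 to 17218 in WT. None of the markers of either list was at 0. Of 7 astrocyte and 6 endothelial markers 1 each was called lower. With the mean of the cortical markers other than Tbr1 as a covariate, added after the data were seen, Per2 differed by 0.47 (limma adjusted p = 0.0173), Bhlhe40 by 0.30 (limma adjusted p = 0.0416) and Cry2 by 0.04 (limma adjusted p = 0.738). With the olfactory and striatal means as covariates Per2 and Bhlhe40 differed by 0.52 and 0.38 and were called, and Cry2 by 0.09 (limma adjusted p = 0.19). The call of Cry2 also ended when any of 9 of the 15 libraries was left out (lithium females 2 and 3, lithium males 1, 3 and 4, WT females 2 and 3, WT males 1 and 3), where its difference was 0.11 to 0.12. In bulk tissue a change in RNA per cell and a change in the share of a cell type cannot be told apart.

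Against WT vehicle, carriers on fluoxetine also had more Per2 and Bhlhe40. Per2 and Bhlhe40 were higher, 2 of the 10 genes beside 0.145% of all genes (0.0447% were called lower). The WT libraries are again shared with the comparison that chose the genes. These calls and p-values are therefore not independent of that choice either. Per2 was at 1543, 1650, 1627 and 1937 in females and at 1721, 1289, 1487 and 1461 in males on fluoxetine. The male values all lay above the WT males, a separation without a computed share over all genes. Of the 4 females, 3 lay within the range of the WT females. The difference was 0.34 ± 0.07, or 1.26-fold (limma adjusted p = 0.0279). Bhlhe40 was at 4113, 3952, 4215 and 4709 in females and at 3590, 3810, 4287 and 4254 in males, a difference of 0.28 ± 0.05 from WT (limma adjusted p = 0.0188).

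Nr1d1 was at 3494, 3874 and 4247 (lowest, median, highest) on fluoxetine and differed from WT by 0.20 ± 0.05 (limma adjusted p = 0.151). Arntl was at 859, 916 and 1065 and differed by -0.03 ± 0.05. The size of both differences held on leaving out 1 library, at 0.30 to 0.38 for Per2 and 0.25 to 0.30 for Bhlhe40, while the adjusted p crossed the threshold in some cases. Per2 was no longer called when any of 7 of 16 libraries was left out (fluoxetine female 4, fluoxetine males 1 and 3, WT females 2 and 3, WT males 2 and 3), and Bhlhe40 when any of 3 was (fluoxetine female 4, fluoxetine male 3, WT female 2). The 8 cortical markers were higher than in WT in this comparison too, with 1 called, Tbr1. All 12 striatal markers were higher, 0 called by limma and 3 at an unadjusted p under 0.05, with sums of 10225 to 33713 on fluoxetine and 11145 to 22515 in WT. With the olfactory and striatal means as covariates the differences were 0.35 for Per2 (limma adjusted p = 0.0185) and 0.31 for Bhlhe40 (limma adjusted p = 0.0049). With the cortical mean as a covariate they were 0.29 for Per2 (limma adjusted p = 0.0997) and 0.22 for Bhlhe40 (limma adjusted p = 0.0916). Without the 10 libraries high in olfactory or striatal markers they were 0.40 for each. That set kept fluoxetine female 4 as the only fluoxetine female, beside fluoxetine males 3 and 4. This female had the highest Per2 and Bhlhe40 values on fluoxetine, at 1937 and 4709, so 0.40 rests on it for females.

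**Figure D2:**
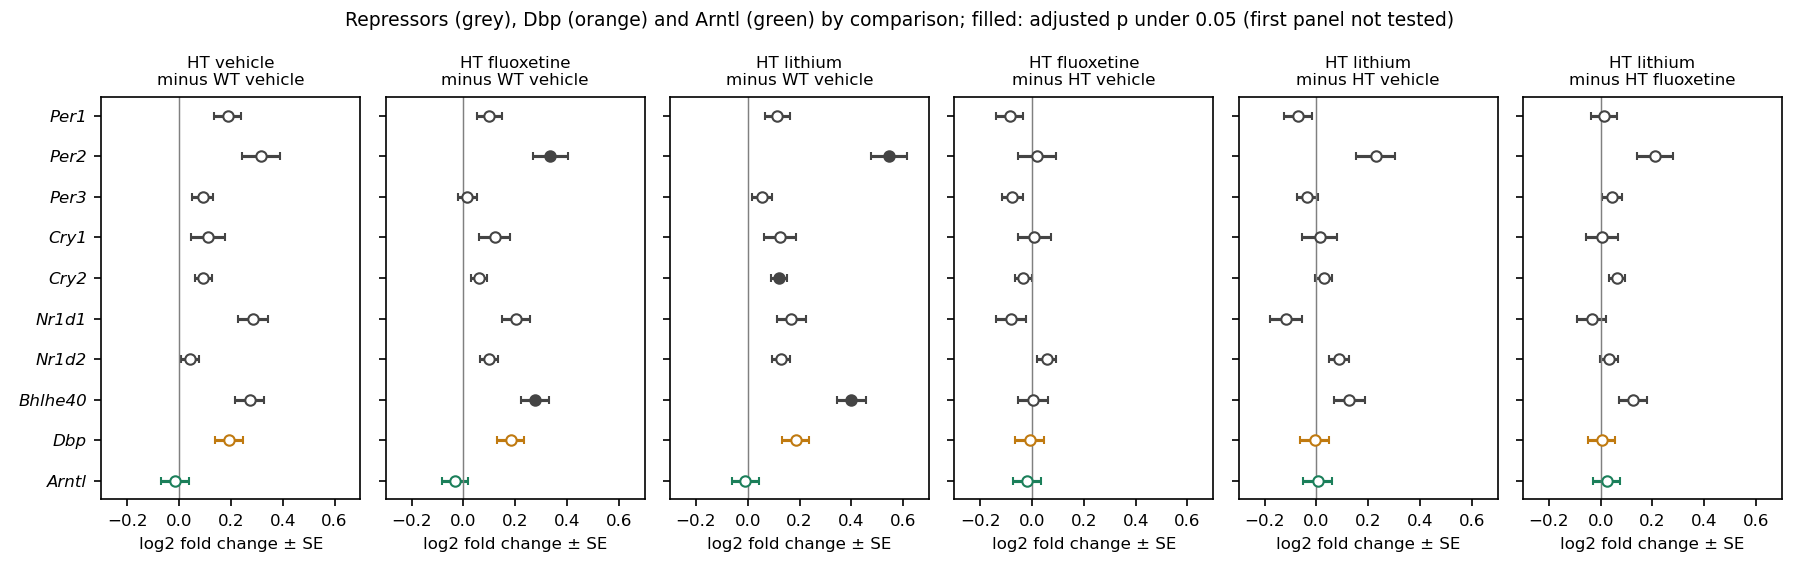
Log2 fold change ± SE (x axis) of the 10 genes in 6 comparisons, with repressors in grey, Dbp in orange and Arntl in green. Filled points were called by limma, which are Per2 and Bhlhe40 on either drug and Cry2 on lithium, each against WT, and the comparison that chose the genes has open points only.

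Among carriers, none of the 10 genes was called for either drug against vehicle or for lithium against fluoxetine. In limma 0.0% of all genes were called in each of these 3 comparisons, so the absence of members is no result about them. Unadjusted p-values under 0.05 numbered 1397 genes for fluoxetine, 2030 for lithium and 626 for lithium against fluoxetine, among them 0, 3 and 2 of the 10 clock genes. With edgeR on the recovered reads 0 genes were called in each, and DESeq2 called 2 genes lower for fluoxetine, 24 higher and 8 lower for lithium, and 1 higher and 1 lower for lithium against fluoxetine, with none of the 10 clock genes among them.

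Per2 was higher on lithium than on vehicle by 0.23 ± 0.08 (limma adjusted p = 0.28) and than on fluoxetine by 0.21 ± 0.07 (limma adjusted p = 0.985). In males all 4 lithium values (1593 to 1832) lay above all 3 vehicle values (1270 to 1497), and the share of all genes that do so was not computed. In females the lithium range of 1828 to 2013 lay within the vehicle range of 1557 to 2128. Over both sexes 5 of the 7 lithium values were above all but 1 fluoxetine value. Bhlhe40 differed by 0.13 ± 0.06 and 0.12 ± 0.05 in the same comparisons (limma adjusted p = 0.422 and 0.985). Without the 10 libraries high in olfactory or striatal markers, lithium differed from fluoxetine by 0.13 for Per2 and by 0.01 for Bhlhe40. In that set fluoxetine female 4, with the highest Per2 and Bhlhe40 values on fluoxetine, was the only fluoxetine female, so the smaller differences rest on it for females. Nr1d1 went the other way against vehicle, by -0.12 ± 0.06 on lithium and -0.08 ± 0.06 on fluoxetine (limma adjusted p = 0.462 and 0.751). Nr1d2 differed from vehicle by 0.09 ± 0.04 on lithium and 0.06 ± 0.04 on fluoxetine (limma adjusted p = 0.398 and 0.721). Differences of Arntl were 0.0045, -0.02 and 0.02 for lithium against vehicle, fluoxetine against vehicle and lithium against fluoxetine, with SE of 0.06, 0.05 and 0.05. Lithium against fluoxetine uses no library of the comparison that chose the genes. There 7 of the 8 repressors were positive with a median of 0.04 log2, beside 50.6% of all genes positive and a median of 0.00098. These genes belong to 1 loop and were chosen with earlier results of these data known, so this count is a description and was not tested.

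No gene of the positive arm was called in any comparison with WT. Few genes were called at all, 0.162% higher in HT vehicle, 0.145% on fluoxetine and 1.33% on lithium. The absence is therefore no result about this arm. Clock and Npas2, the partners of ARNTL, differed from WT by -0.0044 ± 0.04 and 0.08 ± 0.07 in HT vehicle, by -0.01 ± 0.04 and 0.10 ± 0.06 on fluoxetine and by 0.05 ± 0.04 and 0.15 ± 0.06 on lithium. The median of Arntl, Clock and Npas2 against WT was -0.0044 in HT vehicle, -0.0051 on fluoxetine and 0.05 on lithium. That of the 8 repressors was 0.15, 0.11 and 0.13 in the same comparisons. The repressors, but not Clock and Npas2, were chosen by the first of these differences and the WT libraries are shared, so the gap between the arms restates that choice. Of a list of activators other than Arntl, Clock and Npas2 among them, 0 of 6 were called by limma in any of these comparisons. Only 1, Npas2 on lithium, had an unadjusted limma p under 0.05 (adjusted p = 0.202), beside 18.6% of all genes on lithium.

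Per2 was higher in females than in males. Over the 4 genotype and treatment groups the mean female minus male difference was 0.31 ± 0.05, or 1.24-fold (limma adjusted p = 0.00234), and Per2 was the only one of the 10 called, beside 0.207% of all genes called higher in females. Every female value lay above every male value in WT, where the females reached down to 1303 and the males up to 1104, and in HT vehicle, where the bounds were 1557 and 1497. On fluoxetine and on lithium the sexes overlapped for each of the 10 genes, beside 2.94% and 3.78% of all genes with every female above every male. The difference was 0.49 in WT, 0.40 in HT vehicle, 0.18 on fluoxetine and 0.15 on lithium.

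Bhlhe40 separated the sexes in the same 2 groups. Its WT females were at 3606, 3273, 3482 and 3947 and its WT males at 3182, 3261, 3217 and 3211. Complete separation of females above males was seen for 3.93% of all genes in WT and for 4.79% in HT vehicle. Over the 4 groups Bhlhe40 differed by 0.16 ± 0.04 (limma adjusted p = 0.104), and the other 8 genes by 0.02 to 0.07, all positive and not called. The change of the sex difference with each drug was tested as an interaction. For Per2 it was -0.21 ± 0.15 with fluoxetine and -0.24 ± 0.15 with lithium, and limma called 0 of the 10 genes in either, beside 0.106% and 0.0% of all genes, with 0 of 10 at an unadjusted p under 0.05. A smaller sex difference on either drug was therefore not established.

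Blood markers moved with sex. All 5 (Hba-a1, Hba-a2, Hbb-bs, Hbb-bt, Alas2) were lower in females, with a median of -0.34, 0 called by limma and 5 at an unadjusted p under 0.05. Their sum ranged from 2831 to 4651 in females and from 3417 to 7443 in males, and none was at 0. With their mean as a covariate, added after the data were seen, the Per2 difference was 0.27 (limma adjusted p = 0.101), so the call ended although the size was close. The 8 olfactory markers were lower in females too, with a median of -0.23 and 0 called. With the olfactory and striatal means as covariates Per2 differed by 0.30 (limma adjusted p = 0.00217).

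**Figure D3:**
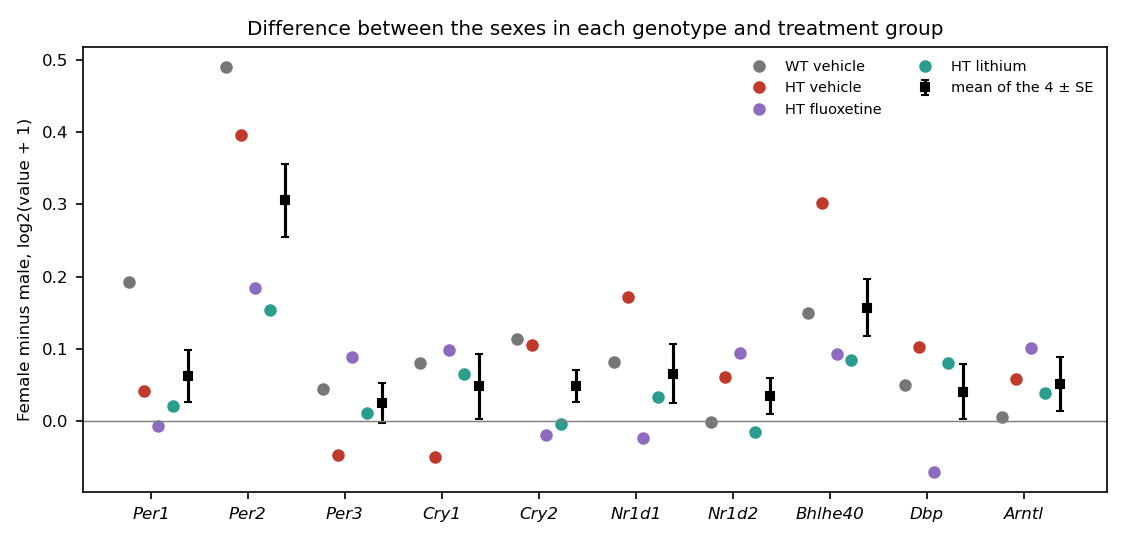
Female minus male difference in log2(value + 1) (y axis) of each gene in each group (coloured points) and its mean over the 4 groups ± SE (black squares). Per2 stands at 0.49 in WT and 0.40 in HT vehicle, above its values of 0.18 and 0.15 on fluoxetine and lithium.

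Between libraries of 1 group, 2 pairs of clock genes varied together. For this, the mean of each of the 8 groups was removed, so that no group difference enters, and all 45 pairs of the 10 genes were correlated over 29 libraries with 100000 permutations within groups. Of the 45 pairs 33 had a positive Pearson r, and 2 passed after adjustment over the pairs. The shares of pairs of all genes that are positive or pass were not computed, so neither count is read as particular to clock genes. The cortical covariate was not applied to the pairs. Nr1d1 and Dbp, both direct E-box targets, varied together from library to library with r = 0.60 (permutation p = 0.00023, adjusted p = 0.0103) and Spearman rho = 0.69 (adjusted permutation p = 0.0018). Without the 2 libraries farthest from the median of Nr1d1 r was 0.63, and it was 0.63 in females and 0.74 in males. Cry2 and Bhlhe40 had r = 0.63 (adjusted permutation p = 0.0497) and rho = 0.64 (adjusted permutation p = 0.0378). Without the 2 libraries farthest from the median of Cry2 r was 0.61.

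Both calls changed with the libraries used, and r changed less. Without HT fluoxetine female 3 r of Nr1d1 and Dbp was 0.55 (adjusted permutation p = 0.0585), and without the 10 libraries high in olfactory or striatal markers it was 0.54 (adjusted permutation p = 0.42). The call of Cry2 and Bhlhe40 ended when any of 17 of the 29 libraries was left out, with r between 0.56 and 0.72 over all 29 such settings, and without the high-marker libraries r was 0.75 (adjusted permutation p = 0.42).

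Arntl paired with none of the other genes past the threshold. Its 9 pairs had a median r of -0.03, against 0.22 over the 36 pairs of the other genes. The median over pairs of all genes was not computed. The lowest were Arntl with Nr1d2 at r = -0.51 and rho = -0.52 (adjusted permutation p = 0.154 and 0.16) and with Cry1 at r = -0.43 and rho = -0.40 (adjusted permutation p = 0.155 and 0.246). Without the 2 libraries farthest from the median of Nr1d2 the former r was -0.50. Cry1, the late-phase repressor, had r = -0.49 to Cry2 and rho = -0.46 (adjusted permutation p = 0.125 and 0.174). Per2 and Bhlhe40 had r = 0.57 and rho = 0.52 (adjusted permutation p = 0.154 and 0.16), with r = 0.89 in females and 0.08 in males, a difference that was not tested.

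**Figure D4:**
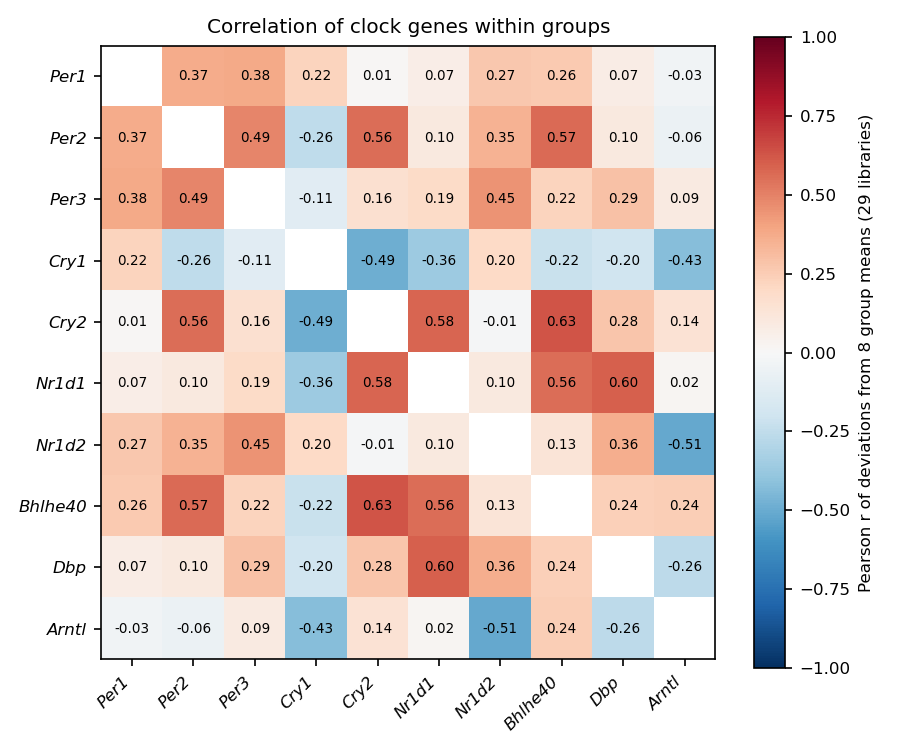
Pearson r (colour and number) between the 10 genes after removal of the 8 group means, over 29 libraries. Nr1d1 with Dbp (0.60) and Cry2 with Bhlhe40 (0.63) are the pairs that passed, and the Arntl row holds the negative value of -0.51 with Nr1d2.

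The 2 genes most like Dbp across libraries were listed clock genes. Among 13827 genes with a mean of at least 50, Ciart, an E-box driven repressor of the clock, had the highest r of deviations with Dbp, at 0.78 over 29 libraries, and Tef, a sister factor that binds the same D-box, the second highest at 0.71. Agfg2, Zcchc18 and Gabrd followed at 0.69, 0.68 and 0.68. The lowest were Ptar1 at -0.73, Sipa1l2 and Dlg5 at -0.69, and Pcdhb4 and Hip1 at -0.68. Of 22 other listed clock genes in this ranking, 5 lay within the 100 highest and 3 within the 100 lowest, places that 0.723% of all genes can hold. On the high side these were Ciart, Tef, Usp2, a deubiquitinase with a clock-driven rhythm, at rank 28, Bhlhe41 at rank 63 and Hlf at rank 92. On the low side were Lonrf3 at rank 42 from the lowest, Nfil3, the repressor that opposes DBP at the D-box, at rank 55, and Clock at rank 96. All points share their library and its normalisation, and no test was made on this ranking. Tissue content also varied between libraries of 1 group. Fluoxetine females 1 to 4 had Nfil3 deviations of 0.41, -0.50, 0.29 and -0.20 (log2). Their olfactory marker means, centred over all libraries, were 1.94, -1.63, 1.26 and -0.88. HT vehicle females 1 to 3 had deviations of 0.07, 0.28 and -0.35 beside means of -0.51, 1.15 and 0.20. On each drug in both sexes, and in WT females, the libraries lowest and highest in olfactory mean were also lowest and highest in Nfil3. In WT males and in HT vehicle of either sex, only the lowest or only the highest library matched. The part of tissue content or of collection time in these correlations was not tested.

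For Arntl the genes most alike included F2rl2 at r = 0.80, Hpgds and Ccdc142 at 0.73 and Herc6 at 0.72, and the least alike were Tpbg at -0.76, Ecsit at -0.74, Enpp4 at -0.72, Myo1e at -0.70 and Gatm at -0.69. None of the 22 other listed clock genes was among the 100 highest or lowest for Arntl, and Clock itself had r = 0.22.

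**Figure D5:**
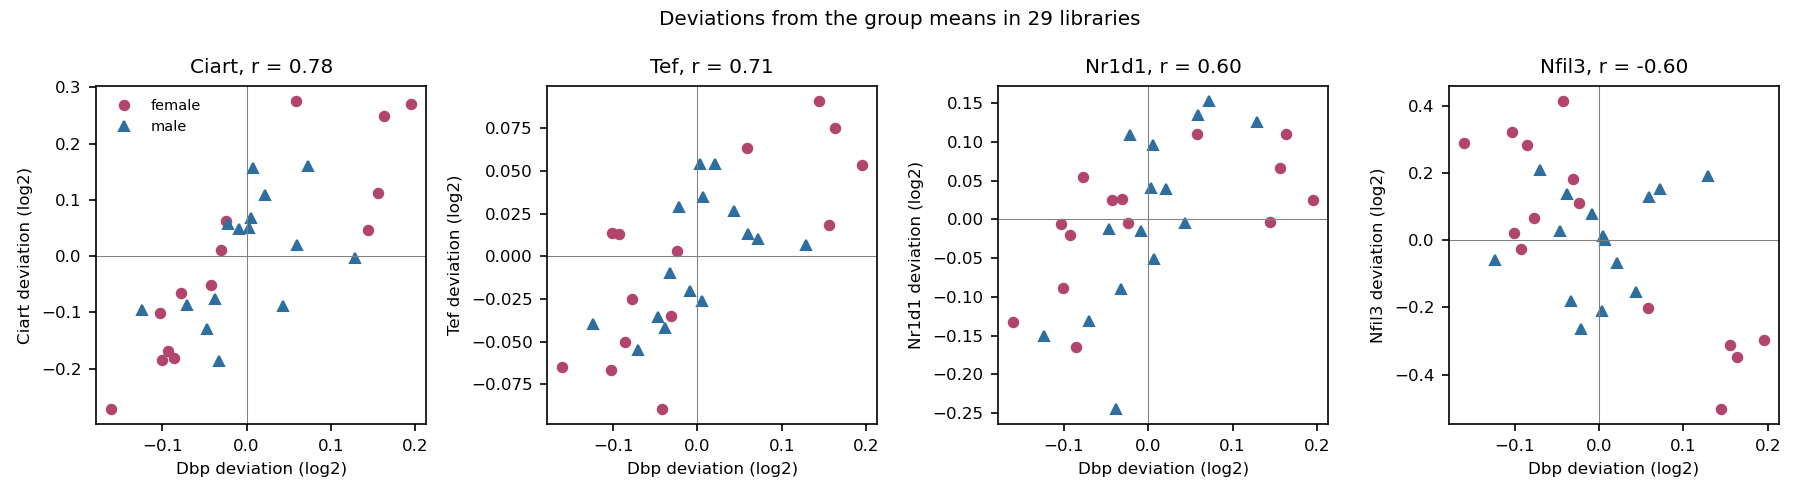
Deviation of Ciart, Tef, Nr1d1 and Nfil3 (y axis, log2) against that of Dbp (x axis, log2) in 29 libraries after removal of the group means. Points climb to the right for Ciart (r = 0.78), Tef (0.71) and Nr1d1 (0.60) and fall for Nfil3 (-0.60).

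Other clock genes were called once. Of 10 further repressors and modifiers, Ciart, Bhlhe41 and Csnk1e among them, Csnk1d, a kinase that phosphorylates PER, was higher on lithium than in WT by 0.12 ± 0.03 (limma adjusted p = 0.0267), the 1 gene called beside 1.33% of all genes, at 3723, 3882 and 4139 (lowest, median, highest) against 3355, 3652 and 3805. Ciart differed by 0.29 ± 0.08 in the same comparison (limma adjusted p = 0.0599). None was called on fluoxetine against WT, where 3 of the 10 had an unadjusted limma p under 0.05, beside 9.26% of all genes. Of 7 further D-box factors and outputs (Tef, Hlf, Nfil3, Usp2, Noct, Wee1, Lonrf3), limma called 0 against WT on either drug, with 4 at an unadjusted p under 0.05 on lithium and 1 on fluoxetine, beside 18.6% and 9.26% of all genes.

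Genes that report on inputs to Per1, Per2 and Bhlhe40 moved in both directions. Of 13 immediate early genes, which neurons induce within minutes of activity, 1 was called higher and 2 lower on lithium against WT, beside 1.33% and 0.57% of all genes. Ier5 was higher by 0.38 ± 0.05 (limma adjusted p = 0.000326), Btg2 was lower by -0.75 ± 0.15 (limma adjusted p = 0.00912) and Fos was lower by -0.39 ± 0.10 (limma adjusted p = 0.0476). The median of the list was -0.15. On fluoxetine Btg2 was lower by -0.71 ± 0.14 (limma adjusted p = 0.0279) and was the only one called. Against HT vehicle 12 of the 13 were lower on either drug, with 0 called by limma and 6 at an unadjusted p under 0.05 in each, beside 7.81% of all genes for fluoxetine and 11.4% for lithium. Of all genes 47.8% and 48.4% were positive in these comparisons.

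Of 8 genes induced by glucocorticoids, 2 were called higher and 2 lower on lithium against WT, beside 1.33% and 0.57% of all genes. Those higher were Zbtb16 by 0.59 ± 0.09 and Fkbp5 by 0.46 ± 0.10 (limma adjusted p = 0.00085 and 0.0192). Cebpd and Ddit4 were lower, by -0.68 ± 0.10 and -0.35 ± 0.06 (limma adjusted p = 0.000729 and 0.00357), and also on fluoxetine, by -0.58 ± 0.10 and -0.37 ± 0.06 (limma adjusted p = 0.00839 and 0.00666), where 0.0447% of all genes were lower. In HT vehicle, without a drug, Cebpd also differed from WT by -0.51 ± 0.11 (limma adjusted p = 0.0398), Ddit4 by -0.18 ± 0.06 and Btg2 by -0.41 ± 0.15 (limma adjusted p = 0.232 and 0.265). Zbtb16, like Per2, was higher in females, by 0.44 ± 0.07 (limma adjusted p = 0.000485). Of 7 genes that respond to temperature, Hsph1 was called higher on lithium against WT, by 0.19 ± 0.04 (limma adjusted p = 0.0237), and the cold-induced Cirbp differed by -0.21 ± 0.07 (limma adjusted p = 0.0958). The part of these inputs in the clock gene values was not tested.

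Reads of 5 clock genes could include reads of a gene on the other strand, since the use of strand in counting is not stated. Nr1d1 shares 263 exon bases with Thra, Dbp shares 539 with Sphk2 and Bhlhe40 shares 118 with 0610040F04Rik. Cry2 shares 295 with D930015M05Rik and Arntl 33 with Gm45355, and these partners were not analysed here. None of the former 3 was called in any comparison of the groups or sexes. On lithium against WT, Thra differed by 0.07 ± 0.04 (limma adjusted p = 0.381), Sphk2 by -0.02 ± 0.04 (limma adjusted p = 0.788) and 0610040F04Rik by 0.06 ± 0.23 (limma adjusted p = 0.927). Against WT in HT vehicle their differences were 0.05, 0.02 and -0.19, with SE of 0.05, 0.04 and 0.24.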

How the data were processed

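RNA was sequenced from mouse prefrontal cortex in 29 libraries with a strand-marking mRNA kit, per the labels' protocols. The deposited table holds signal values, 1 for each gene in each library, and the values themselves show that the authors divided whole reads by a size factor. With 1 step per library (0.885 to 1.21, tolerance 0.0001), 100% of values came out as whole reads. The submitters' processing notes name Salmon 0.11.2, R 3.6.0, DESeq2 1.19.11 and GRCm38, and the strand setting is not given in the sources used here. Of 18240 gene IDs 18227 were matched to a name in the GRCm38 annotation.

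The 17881 genes that reached 10 in 3 or more libraries were tested with limma 3.58.1 in R 4.3.3 on log2(value + 1), with 8 group means (genotype and treatment by sex), an intensity trend and Benjamini-Hochberg adjustment over all genes at 0.05, two-sided. A comparison of treatments averages both sexes. Correlations used deviations from the group means, 100000 permutations within groups (20000 where 1 library was left out) and adjustment over 45 pairs, two-sided. The limma fit and the correlation test were tested on simulated data. By rule, all 10 genes and genes of fixed lists are named, with the 5 highest and 5 lowest r for Dbp and Arntl. Some of these are not reported here. The members and lists were chosen with earlier results of these data known. Alternatives were quantile and TMM scaling, other pseudocounts and filters, no trend, only the groups compared, a replicate block, marker covariates, fewer libraries, and count tests of the whole reads with DESeq2 1.42.0 and edgeR 4.0.16. Covariates for cortical and blood markers were chosen after seeing the data.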

Additional observations from a re-analysis of the deposited data

Results flagged for a closer look

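In 4 of the 40 sets of 1 gene in 1 group, a single library stood apart from the rest of its group by Dixon's criterion, which chance meets in about 1 of 20 sets. For Dbp this was WT vehicle female 1, at 2038 normalised reads with the next library at 1821, HT vehicle female 3, at 2382 with the next at 2065, and HT lithium female 2, at 2408 with the next at 2090. For Per1 it was HT vehicle female 3, at 5509 with the next at 4952. Each was the highest of its group, and HT vehicle female 3 also held the highest Per2, Nr1d1 and Bhlhe40 values of all 29 libraries, at 2128, 4682 and 5272.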

How the results depend on the processing

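Of 2023 recomputed values of 63 single results, 1889 kept their direction and side of the threshold, 85 lost the call, 23 gained one and 26 changed sign, the last all without a call. Per2 and Bhlhe40 on lithium against WT stayed called in all 30 settings run. The number of the 10 genes called on lithium against WT was 3, 5 with DESeq2, 2 with quantile normalisation, no intensity trend, the cortical or the olfactory and striatal covariates or without the high-marker libraries (Cry2 was lost in each), and 2 to 5 on leaving out 1 library (5 without WT female 1). On fluoxetine against WT it was 2, 1 with no intensity trend, and 0 with only the groups compared or with the cortical covariate. No count is given without the high-marker libraries, where fluoxetine female 4 was the only fluoxetine female kept. On leaving out 1 library the number was 0 to 2. For HT vehicle against WT, the difference that chose the genes, it was 2, 1 with quantile normalisation or the cortical covariate, 0 with no intensity trend, only the groups compared, the blood covariate or without the high-marker libraries, 5 with DESeq2, and 0 to 3 on leaving out 1 library. For sex it was 1, 0 with the blood covariate, 2 with DESeq2 and 1 to 2 on leaving out 1 library. Pairs that passed numbered 2, 1 with quantile or TMM scaling, 0 without the high-marker libraries and 0 to 4 on leaving out 1 library. The other comparisons had 0 in every setting. The cause of these changes was not tested.

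With the replicate number as a block, sex had 2 calls, Bhlhe40 being added, and r of Cry2 and Bhlhe40 was 0.41. Libraries with the same number did not deviate together on average (mean r -0.009 over 94 pairs, from -0.26 to 0.31). This average cannot show whether some libraries were paired. The numbers came from the titles, and the library names of the HT vehicle females carry numbers that are higher by 1.

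Signs changed near 0. For Arntl with the olfactory and striatal covariates the difference was 0.0019 for fluoxetine against WT, 0.0398 for fluoxetine against vehicle, -0.0096 for lithium against vehicle and -0.0494 for lithium against fluoxetine. For lithium against vehicle it was -0.0064 with the cortical and -0.0036 with the blood covariate. Leaving out 1 library, Arntl ranged from -0.0427 to 0.0127 for HT vehicle against WT, -0.0385 to 0.017 for lithium against WT, -0.024 to 0.0299 for lithium against vehicle, -0.0046 to 0.0494 for lithium against fluoxetine and -0.0466 to 0.0054 for fluoxetine against vehicle. Per3 for fluoxetine against WT ranged from -0.0015 to 0.0315. Without the high-marker libraries, Nr1d1 for fluoxetine against vehicle was 0.0486 and the Per2 sex interaction with fluoxetine 0.0200. Both values rest on fluoxetine female 4 as the only fluoxetine female kept. The fit on only the groups compared was not run for sex.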
